A study of Homo sapiens with 2 samples.

Results

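The 6 miRNAs described here are known for their place in NF-kB and Toll-like receptor feedback: hsa-miR-146a-5p, hsa-miR-146b-5p, hsa-miR-155-5p, hsa-miR-9-5p, hsa-miR-132-3p and hsa-miR-147b. They were chosen by name for their known function, with earlier results of these data known, and they make up 6 of the 2549 miRNAs on the array. The RNA came from exosomes, which are small vesicles that cells shed, of the FaDu line, a human hypopharyngeal squamous cell carcinoma line. One-colour Agilent miRNA arrays (Cy3) were hybridized with 200 ng of total RNA each, 1 array for cells given the NC control plasmid lentivirus (oe-NC) and 1 array for cells given the HOTTIP overexpression plasmid lentivirus (oe-HOTTIP). The labels name a lentivirus for both arrays, while the methods describe plasmids and a lipid transfection reagent, and HOTTIP is a long noncoding RNA that the array does not measure. For both arrays the free-text description contradicts the title and the treatment on which group it is, and the arrays are called here by their titles, as the oe-NC array and the oe-HOTTIP array. If the descriptions hold instead, each direction between the arrays is reversed, whereas a statement that holds on both arrays does not depend on the labels. With 1 array per group there was no replicate and no test, and the SDs of miRNAs below are over the spots of an array, pooled within probes, and cover technical error only.

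Toll-like receptors sense microbial molecules and signal through the adaptor MyD88 and the kinases of the IRAK family to TRAF6 and on to NF-kB, a transcription factor that switches on inflammatory genes. NF-kB also induces miRNAs that act back on this chain, and some of them limit the response in monocytes and macrophages. The study used the arrays to look for exosomal miRNAs that changed with HOTTIP, on the way to how HOTTIP acts on head and neck cancer cells, and went on to TLR5 and NF-kB. The known feedback miRNAs of this pathway were read from the same arrays.

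The mature sequences are shown because bases 2 to 8, the seed in capitals, decide most of the targeting and group the miRNAs into families. All 6 were matched to RefSeq mature miRNAs (GRCh38.p14), where hsa-miR-147b is listed as hsa-miR-147b-3p.
hsa-miR-146a-5p: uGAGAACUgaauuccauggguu
hsa-miR-146b-5p: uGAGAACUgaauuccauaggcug
hsa-miR-155-5p: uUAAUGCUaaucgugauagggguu
hsa-miR-9-5p: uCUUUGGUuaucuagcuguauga
hsa-miR-132-3p: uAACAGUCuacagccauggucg
hsa-miR-147b: gUGUGCGGaaaugcuucugcu
The 6 sequences hold 5 different seeds, with only miR-146a-5p and miR-146b-5p sharing one. Counted from the 5′ end, these relatives differ over the first 22 bases by G18A and U21C (miR-146a-5p first), and miR-146b-5p has a further base at its 3′ end. Relatives on the array are close as well, since hsa-miR-212-3p (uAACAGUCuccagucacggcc) has the seed of miR-132-3p, while hsa-miR-147a (gUGUGUGGaaaugcuucugc) differs from miR-147b by C6U within the seed.

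The 6 miRNAs come from 8 loci. miR-146a-5p lies at chr5:160485372-160485393 (plus strand) within the lncRNA gene MIR3142HG, and miR-146b-5p at chr10:102436520-102436542 (plus strand), outside any other listed gene. miR-155-5p lies at chr21:25573983-25574006 (plus strand) within its host lncRNA gene MIR155HG. miR-132-3p lies at chr17:2049929-2049950 (minus strand), outside any other listed gene, and miR-147b at chr15:45433098-45433118 (plus strand) within the protein-coding gene COXFA4L3. miR-9-5p has 3 loci with the same mature sequence, at chr1:156420392-156420414 (minus strand), chr5:88666902-88666924 (minus strand) and chr15:89368032-89368054 (plus strand), each within a lncRNA host gene. The array reads the mature sequence, so these 3 loci cannot be told apart.

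None of the 6 miRNAs was detected on either array. Detection is the call of the scanner software, which was given to 12.9% of all miRNAs on the oe-NC array and 15.3% on the oe-HOTTIP array, and 2092 miRNAs (82.1%) were detected on neither. With 6 members and these shares, a count of 0 of 6 is near the background and does not set the group apart from the rest of the array. The result says that the 6 miRNAs were not detectable at this signal, not that they were absent from the exosomes. In bulk RNA of this kind, fewer vesicles that carry a miRNA and less of it per vesicle cannot be told apart.

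The spots themselves lay at background. Each miRNA was read by 20 spots per array, divided over 2 probes, or 4 for miR-147b, and after removal of spots marked as outliers 119 and 118 of the 120 spots were left on the oe-NC and oe-HOTTIP arrays. No spot of the 6 miRNAs was marked as well above background on either array, against 8.78% and 10.6% of all miRNA spots on the oe-NC and oe-HOTTIP arrays. None of their spots exceeded the mean of the negative control spots plus 2 SD, which was 8.62 on the oe-NC array and 7.87 on the oe-HOTTIP array. Over all miRNAs, 9.53% and 13.1% had a mean over that limit. The negative control spots, pooled over 7 control sequences so that their SD includes differences between sequences, had mean intensities of 3.87 ± 2.37 (SD over 976 spots) and 3.45 ± 2.21 (SD over 975 spots), and all 6 miRNAs had lower means than these on both arrays. Most miRNAs not detected also lay below the control means, with medians of -0.75 and -0.53 on the oe-NC and oe-HOTTIP arrays. Lying below the controls therefore does not set the 6 apart. Of the 6 miRNAs' spots, 51.3% and 54.2% were above 0, against 39.5% and 42.4% of the spots of all miRNAs not detected on the respective array. The scanner software flagged 27 of the 120 spots on each array as positive and significant. Of these, 10 and 12 belonged to miR-155-5p. The same flag was on 15.5% and 16.2% of the spots of miRNAs not detected, and on 77.2% and 69.5% of the negative control spots.

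**Figure D1:**
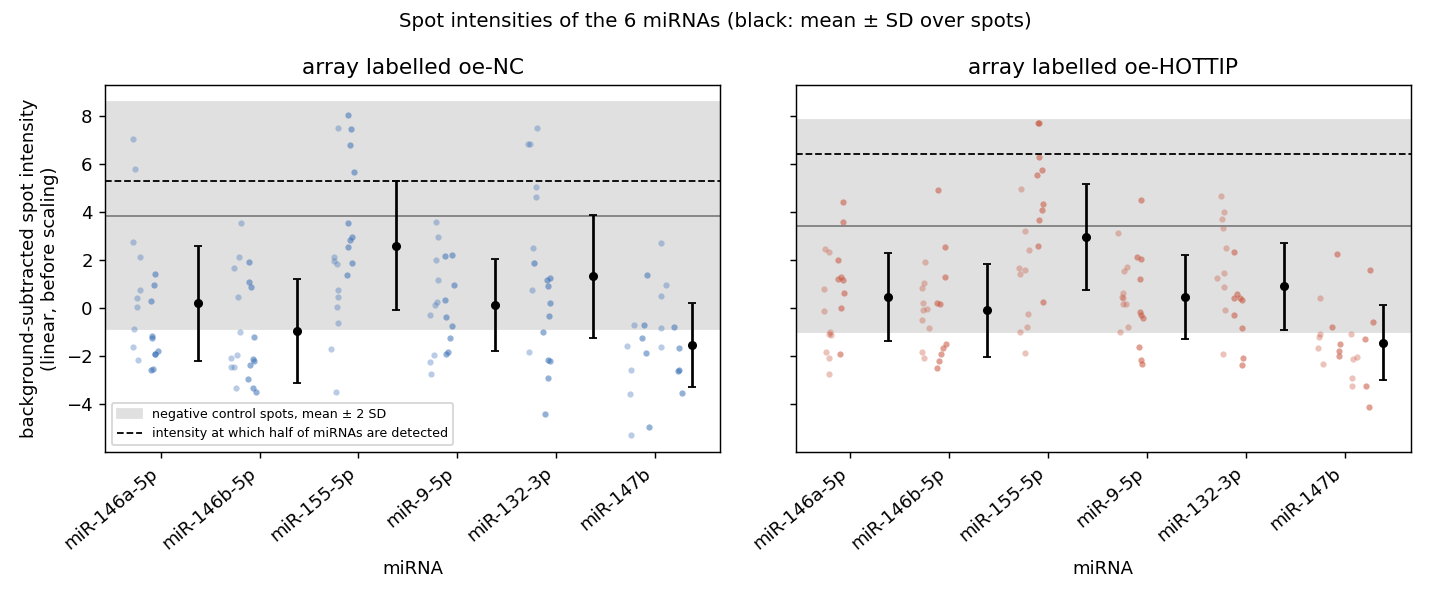
Background-subtracted spot intensity (linear, before scaling) of the 6 miRNAs on each array, with a column of points per probe and the mean ± SD over spots in black. The grey band is the mean ± 2 SD of the negative control spots, the grey line its mean, and the dashed line the lowest intensity at which at least 50% of the 51 miRNAs nearest in rank were detected (5.32 and 6.44). All 6 means lie below the grey line on both arrays, as does the median of the miRNAs not detected (not drawn), and no spot lies above the band.

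miR-155-5p, which Toll-like receptor ligands induce in macrophages and which lowers the signalling inhibitors SOCS1 and SHIP1, had the highest mean spot intensity of the 6 on both arrays, although intensities of different probes do not rank the amounts of different miRNAs. Its spots ran from -3.48 over a median of 2.07 to 8.04 on the oe-NC array, with a mean of 2.61 ± 2.69 (SD over 20 spots). On the oe-HOTTIP array they ran from -1.86 over a median of 2.90 to 7.74, with a mean of 2.98 ± 2.22 (SD over 20 spots). The spots of both arrays overlapped over most of their range, and the difference in mean intensity (oe-HOTTIP minus oe-NC) was 0.37 with a spread of 3.49 over spots. miR-155-5p was brighter than 95.1% and 93.7% of the miRNAs not detected on the respective array. Of the 51 miRNAs nearest to it in rank, itself included, 3 were detected on the oe-NC array and 1 on the oe-HOTTIP array. The signal came mainly from 1 of its 2 probes, at 4.32 ± 2.45 and 4.81 ± 2.31 (SD over 10 spots each), while the other stood at 0.90 ± 2.91 and 1.15 ± 2.12. The brighter probe was within the range of the means of the 7 negative control sequences, which went from 2.77 to 5.25 on the oe-NC array and from 2.33 to 4.94 on the oe-HOTTIP array.

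miR-146a-5p, the best known of the feedback miRNAs, is induced by NF-kB and lowers TRAF6 and IRAK1. Its spots ran from -2.58 over a median of -0.40 to 7.06 on the oe-NC array and from -2.72 over a median of 0.65 to 4.44 on the oe-HOTTIP array. The means of 0.21 ± 2.38 (SD over 20 spots) and 0.49 ± 1.83 (SD over 19 spots) were both within 1 SD of 0. Its probes exchanged their order, one standing at 1.44 and -0.42 and the other at -1.03 and 1.39 on the oe-NC and oe-HOTTIP arrays. miR-146b-5p, which shares the seed and so many of the predicted targets, had spots from -3.47 over a median of -1.99 to 3.57 and from -2.48 over a median of -0.05 to 4.95. Its means, -0.95 ± 2.16 and -0.09 ± 1.92 (SD over 20 spots each), were below 0 on both arrays, and the difference of 0.86 was the largest of the 6, with a spread of 2.89 over spots.

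miR-132-3p, which lipopolysaccharide induces and which lowers the coactivator EP300 and acetylcholinesterase, was the only one of the 6 with a lower unscaled mean on the oe-HOTTIP array. Its spots ran from -4.41 over a median of 1.06 to 7.54 and from -2.38 over a median of 0.60 to 4.69 on the oe-NC and oe-HOTTIP arrays. The means were 1.34 ± 2.56 over 20 spots and 0.92 ± 1.80 over 19 spots, and the difference was -0.42 with a spread of 3.13. As for miR-155-5p, its probes differed on both arrays, at 3.62 ± 3.06 and 1.99 ± 2.06 (SD over 10 spots each) for one and at -0.94 ± 1.93 over 10 spots and -0.15 ± 1.46 over 9 spots for the other.

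miR-9-5p, which Toll-like receptor signals induce in monocytes and neutrophils and which lowers the NF-kB subunit gene NFKB1, stayed close to 0. Its spots ran from -2.75 over a median of 0.13 to 3.59 and from -2.33 over a median of 0.31 to 4.53, with means of 0.13 ± 1.92 (SD over 19 spots) and 0.48 ± 1.76 (SD over 20 spots). miR-147b, whose mouse counterpart is induced by Toll-like receptors and restrains inflammatory cytokines in macrophages, had mean intensities below 0 on both arrays. Its spots ran from -5.28 over a median of -1.58 to 2.74 and from -4.12 over a median of -1.57 to 2.26, with means of -1.52 ± 1.76 and -1.43 ± 1.57 (SD over 20 spots each). Of its 20 spots, 16 and 17 were below 0 on the oe-NC and oe-HOTTIP arrays.

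Between the arrays, 5 of the 6 miRNAs had a higher and 1 a lower mean intensity in the unscaled values of the array labelled oe-HOTTIP, and after scaling miR-155-5p was lower too. The unscaled median of the miRNAs not detected was also higher on that array, at -0.53 against -0.75 on the oe-NC array. The count of directions is therefore not read as a trait of the 6. None of the unscaled differences exceeded its spread over spots, and none exceeded 2 standard errors computed from the number of spots. A single standard error was between 0.53 and 0.78. These standard errors treat spots of an array as independent and cover technical error only, so they cannot speak to a difference between the groups. No fold is given for any of the 6, since both signals were below background. Of the 261 miRNAs detected on both arrays, 39.1% differed by at least 2-fold, the threshold of the methods, once the arrays had been scaled to the 90th percentile of these miRNAs. This share was 50.2% without scaling and 12.6% with the normexp background correction, which adds an offset of 50 to each spot. With lower bounds for miRNAs detected on 1 array, 59.1% of 457 did. No member was among those that could be called.

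**Figure D2:**
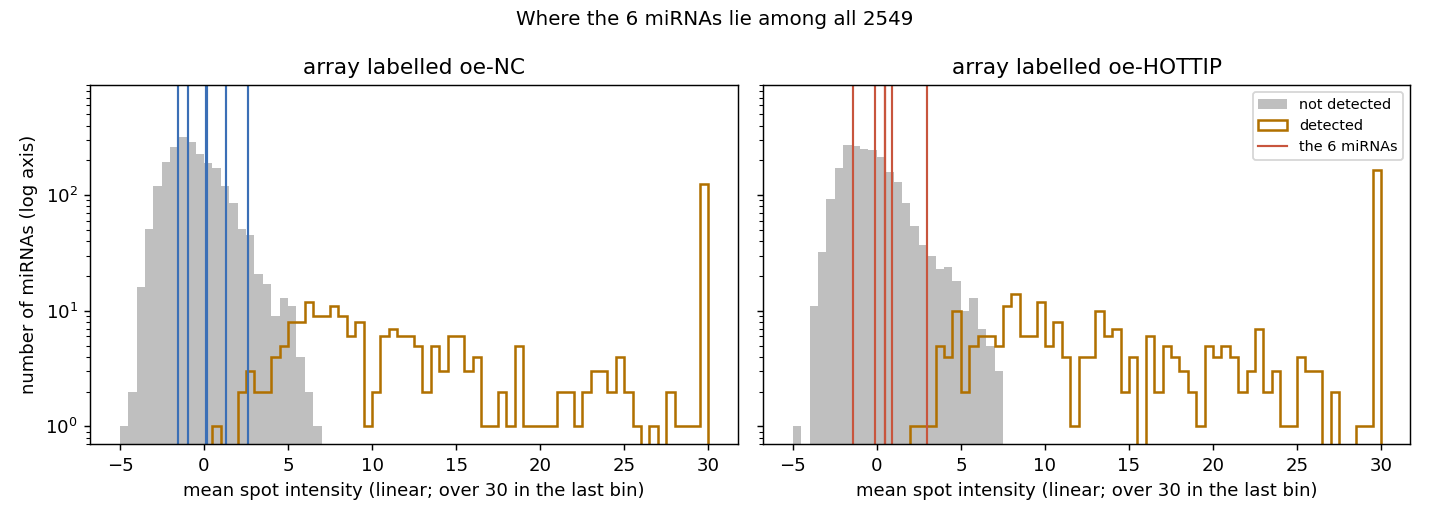
Number of miRNAs (log axis) by mean spot intensity (linear, before scaling, values over 30 in the last bin) on each array, in grey for miRNAs not detected and outlined for miRNAs detected. The vertical lines mark the 6 miRNAs, which lie between -1.52 and 2.61 on the oe-NC array and between -1.43 and 2.98 on the oe-HOTTIP array, among the miRNAs not detected, with miR-155-5p farthest to the right on both.

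The distance to the detection call could be read from the probes. On both arrays each detected miRNA had a probe whose summed signal was over 3 times its error, and no other miRNA had one. The 14 probes of the 6 miRNAs had ratios of signal to error from -1.27 to 1.96 on the oe-NC array and from -0.98 to 2.03 on the oe-HOTTIP array. The brighter probe of miR-155-5p gave the highest ratio on both arrays and reached 65.4% and 67.5% of the signal needed for a call. The better probe of miR-132-3p came next, with 54.9% and 28.5% of the signal needed. Both arrays held many undetected miRNAs nearer to the limit, since 78 of 2221 and 103 of 2159 had a higher ratio than miR-155-5p. For miR-146a-5p the best ratios were 0.67 and 0.60, for miR-9-5p 0.14 and 0.28, for miR-147b 0.17 and -0.33, and for miR-146b-5p -0.25 and -0.02.

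**Figure D3:**
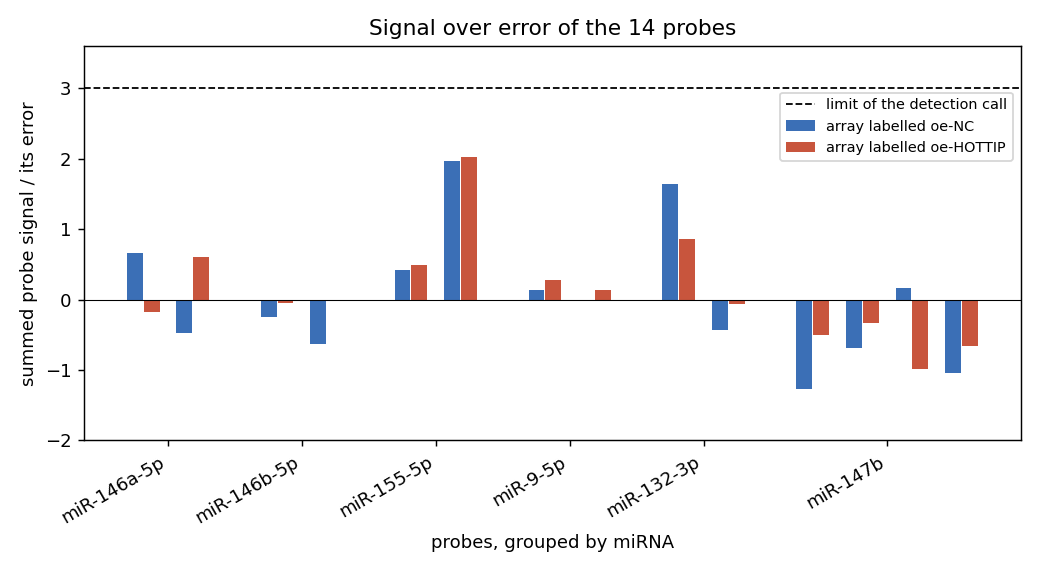
Summed signal divided by its error (no unit) for the 14 probes of the 6 miRNAs, with a bar for each array. The dashed line at 3 is the limit of the detection call. The highest bars, 1.96 and 2.03, belong to 1 probe of miR-155-5p.

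The strands and relatives of the 6 miRNAs were not detected either. As 82.1% of all miRNAs were detected on neither array, this is near the background and does not set them apart. The hairpins of miR-146a, miR-146b, miR-155, miR-9 and miR-132 give an opposite arm that the array reads, and all 5 arms were undetected on both arrays, with mean intensities from -0.74 (miR-146b-3p) to 1.97 (miR-132-5p) on the oe-NC array and from -1.15 (miR-146b-3p) to 2.62 (miR-9-3p) on the oe-HOTTIP array. miR-212, which is made from the same cluster as miR-132, was undetected from both arms, with miR-212-3p at -0.09 ± 2.11 and 0.52 ± 1.92 (SD over 20 spots each). miR-147a was undetected at -0.999 ± 1.86 and -1.25 ± 1.19 (SD over 19 spots each). Among the RefSeq mature miRNAs, 2 others have a seed of one of the 6, miR-212-3p and miR-7153-5p, which has that of miR-146a-5p. miR-7153-5p was undetected as well, with -1.16 ± 1.92 over 19 spots and -0.52 ± 2.15 over 20 spots.

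Other miRNAs tied to the same pathway were detected in these exosomes. Of a list of 16, 9 were detected on both arrays, against 10.2% of all miRNAs. On the oe-HOTTIP array alone 2 were detected (miR-221-3p and miR-301a-3p, which lowers the NF-kB repressing factor NKRF), against 5.06%. The 5 detected on neither, against 82.1%, were miR-199a-5p, miR-105-5p, miR-187-3p, miR-124-3p and miR-181b-5p. The list was chosen with earlier results of these data known and holds miR-19a-3p and miR-19b-3p, which the study followed up from these arrays. Its detection counts are therefore no independent contrast to the undetected feedback miRNAs. None of the 9 differed by at least 2-fold, against 39.1% of all miRNAs detected on both arrays (12.6% with normexp, where the 9 also gave none). The bound for miR-221-3p was 1.35-fold higher on the oe-HOTTIP array, from means of 2.21 and 4.70 on the oe-NC and oe-HOTTIP arrays. miR-301a-3p stood at 3.40 and 4.46, and neither miRNA had a spot well above background on either array. After scaling, the log2 differences of the 9 (oe-HOTTIP minus oe-NC) ran from -0.62 (miR-31-5p) to 0.69 (miR-223-3p), with a median of 0.10 beside 0.02 over all 261. Without scaling between the arrays, the oe-HOTTIP array was brighter and 3 of the 16 passed the threshold, miR-223-3p at 1.34, miR-19a-3p at 1.26 and miR-221-3p at a lower bound of 1.09 on the log2 scale.

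By unscaled mean intensity over both arrays, miR-21-5p, miR-16-5p and miR-19b-3p were the brightest of the list. On the oe-NC array alone let-7i-5p, of the let-7 family that lowers TLR4, was brighter at 91.0 than miR-19b-3p at 78.8. miR-21-5p, which is itself raised by Toll-like receptor signals and lowers the proinflammatory protein PDCD4, had intensities of 577 ± 222 (SD over 18 spots) and 970.0 ± 282 (SD over 16 spots), which after scaling differ by 0.10 on the log2 scale, within the spread of 0.70 over spots. Its sign depended on the scaling, with values from -0.07 to 1.04 over 9 alternatives, the latter under quantile normalization. miR-16-5p, which lowers the kinase IKK alpha, had 243 ± 29.8 (SD over 19 spots) and 439 ± 66.2 (SD over 20 spots), which differ by 0.20 on that scale (spread 0.28). Its mean of 439 was itself the 90th percentile used to scale the oe-HOTTIP array, so its scaled log2 value there was 0 by construction. miR-19b-3p, which like miR-19a-3p the study followed up from these same arrays, differed by 0.35 (spread 0.59). miR-16-5p and miR-19b-3p kept their sign under all 9 alternatives from the scanner output, but 7 of the 9 miRNAs of the list did not under at least 1. In the deposited normalized table miR-21-5p, miR-16-5p and miR-19b-3p all had the opposite sign if its column names are followed. Each of its columns followed the values of the other array, however (Spearman's rho 1.00 for both). Read by the arrays that the columns follow, these signs were the same as here.

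**Figure D4:**
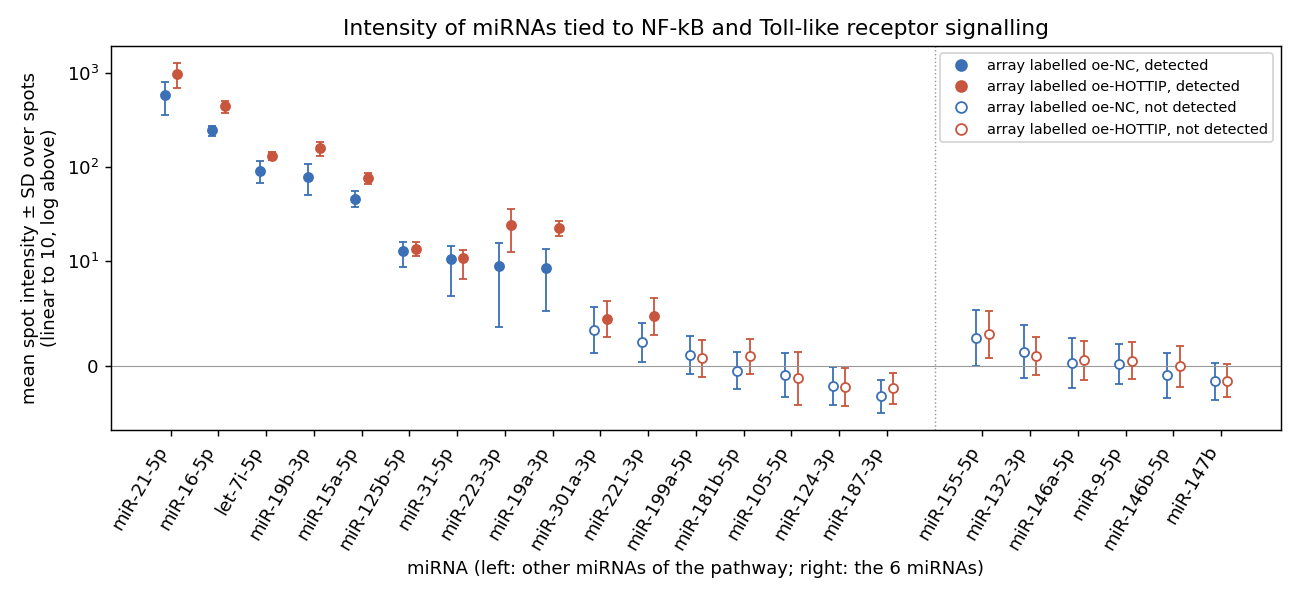
Mean spot intensity ± SD over spots (linear up to 10, log above, before scaling) of the 16 other miRNAs of the pathway and of the 6 miRNAs on each array, filled where detected and open where not. Of the 16, 11 were detected on at least 1 array, and all symbols of the 6 miRNAs on the right are open.

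Markers of the cell type were read beside these values. Of 7 miRNAs of epithelium, 4 were detected on the oe-NC array and 5 on the oe-HOTTIP array, against 12.9% and 15.3% of all miRNAs. miR-205-5p stood at 415 ± 70.3 and 489.9 ± 44.1 (SD over 19 spots each), while miR-203a-3p and miR-429 were undetected on both. Apart from miR-205-5p and miR-203a-3p the list holds the miR-200 family, which marks epithelium in general and not squamous epithelium. Of 7 miRNAs of blood cells and macrophages, 5 were detected on both arrays, against 10.2% of all miRNAs. They were miR-451a, an erythroid miRNA, with 2233 ± 869 over 10 spots and 2552 ± 346 over 14, and miR-144-3p, miR-486-5p, miR-150-5p and miR-223-3p. miR-142-3p and miR-142-5p, which are shared by all blood lineages, were undetected on both. Summed over each list before scaling, the mean intensities were 519.8 and 629 for epithelium and 2282 and 2628 for blood cells on the oe-NC and oe-HOTTIP arrays, the latter nearly all from miR-451a. The direction turned with scaling, after which the median log2 differences (oe-HOTTIP minus oe-NC) of the markers detected on both arrays were -0.52 and -0.33. Single markers went both ways, from -0.65 (miR-200b-3p) to 0.17 (miR-141-3p) for epithelium and from -1.75 (miR-486-5p) to 1.38 (miR-150-5p) for blood cells. miR-486-5p and miR-150-5p were past 2-fold, as were 39.1% of all miRNAs detected on both arrays. miR-200a-3p, detected on the oe-HOTTIP array alone, had a lower bound of 1.15. The source of the blood-cell miRNAs was not tested.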

How the data were processed

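The members and lists were chosen with earlier results of these data known. Per the labels, both samples are single one-colour arrays. The authors deposited scanner output from Agilent Feature Extraction (version 10.10 in the submitters' processing notes, 11.5.1.1 in the output itself) with a background-subtracted intensity per spot. They also deposited normalized log2 values, which the methods trace to GeneSpring and the 90th percentile, and in which all 6 miRNAs stand at the floor of 1e-06 in both columns. The column named oe-NC followed the summed intensities of the other array (Spearman's rho across miRNAs 1.00 over 388, against 0.77 over 261 for its own). The column named oe-HOTTIP did so too (1.00 over 315, against 0.76 over 258 for its own).

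From the scanner output, spots flagged as outliers were left out (3.20% and 3.16% of miRNA spots), spots were averaged per probe and probes per miRNA, and SDs were pooled within probes. Arrays were divided by their 90th percentile over miRNAs detected on both, 279.9 and 439. A miRNA detected on 1 array got a lower bound against the higher of its own signal and the lowest detected signal on the other (0.976 and 2.43). That floor lies under the negative controls, so bounds are not strict. Calls were tested on simulated data, where the changed miRNAs were bright ones, so the test does not cover signals at background. Named miRNAs were the 6, their arms and relatives, and the 3 brightest of the list by unscaled mean over both arrays. Other miRNAs of the list were named outside this rule, for their detection, their brightness, an extreme difference or passing the threshold in an alternative. No miRNA could be named as most like a member, since the rule for likeness asked for detection. Alternatives were other scalings (none, quantile, 75th percentile, median, all miRNAs), the summed intensity, normexp (offset 50, median spot signals), the normalized table, the brightest probe, keeping outlier spots, and other detection calls. The tools were limma 3.58.1 in R 4.3.3 for normexp and otherwise Python 3.11.15 (pandas 2.3.3, numpy 2.4.6).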

Additional observations from a re-analysis of the deposited data

How the results depend on the processing

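The count of 0 members past 2-fold was the same under 12 of 13 alternatives, in most by construction, since a scaling does not touch the detection call. Without that call it was 2 (miR-9-5p and miR-132-3p), from signals below background that give no usable fold. Detection stayed at 0 of 6 on the array labelled oe-NC under all 5 other calls. On the array labelled oe-HOTTIP it stayed at 0 under 4, and was 1 (miR-155-5p) at 2 times the probe error, a call that also took in 19.5% of all miRNAs. That call and the one by a single probe over the negative controls were chosen after the data were seen, as were all alternatives for the list of 16. Its count of 0 past 2-fold became 3 without scaling, 1 with quantile normalization (miR-21-5p), 1 with the summed intensity (miR-223-3p) and 2 with detection by most spots well above background (miR-223-3p and miR-19a-3p, both as lower bounds). The other 8 gave 0. Over all 261 miRNAs the share past 2-fold was 39.1%, and 12.6% with normexp, 50.2% without scaling and between 37.2% and 41.0% under 7 other alternatives. Member log2 differences have no value in any alternative that keeps the detection call. No paired analysis was possible because there is a single array in each group, so no replicate can be left out. Signal over background limits all values of the 6.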
